A study of Homo sapiens with 6 samples.

Results

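Of 48 listed human genes known to be induced by type I interferon, 39 had 1 CPM or more in at least 2 of the 6 libraries and are described here, while 9 did not reach that level. CPM scales a gene's count to the depth of its library; plain totals were used for this level and totals scaled by TMM factors for the values below. All 48 symbols were in the deposited table, which held 29744 symbols, of which 14958 passed a filter on low counts and were tested. Of the 39 genes, 31 reached 1 CPM in all 6 libraries and 8 were under it in some; 32 had such a library in all 3 lines, 7 in 2 lines and 0 in 1 line only. The 39 genes are therefore those that reached this level, not the whole pathway. Of the 9 under it, 5 still had enough counts to be tested.

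The study compared 3 groups of cultured gastric tumour cells, with 2 libraries each. HER2R is labelled resistant to HER2-TCB, a T cell bispecific antibody that binds the receptor HER2 on the tumour cell and the T cell receptor complex on a T cell, and CEAR is labelled resistant to CEACAM5-TCB, which binds the surface glycoprotein CEACAM5 instead. Both are called derivatives of MKN45, an established gastric cancer line labelled sensitive, which is the comparison line. The labels give HER2R the source MKN45-HER2 and do not say whether that is the resistant line itself or a parent of it. Each derivative is a single line, so a difference from MKN45 cannot be told apart from a difference between individual lines. No treatment was listed in any group, and no culture with T cells, antibody or added interferon was analysed here.

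Type I interferons are secreted proteins that act on a receptor present on almost every nucleated cell and switch on a large set of antiviral genes. The receptor's kinases activate STAT proteins, and a complex of STAT proteins with IRF9, called ISGF3, binds the interferon-stimulated response element in the promoters of these genes. Their products sense viral RNA, degrade it, block its translation or stop virus particles from entering or leaving the cell, and many tumour cells hold a low level of them without added interferon.

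The promoters of 6 genes that were called in a comparison are shown first, because 5 of them carry letters of a kind that ISGF3 is known to bind, GAAA units set 2 bases apart, while in OAS1 such units stand 1 base apart. A gene was called when its edgeR p-value, with Benjamini-Hochberg adjustment across every tested gene, was under 0.05. Each line gives the 200 bases before the RefSeq gene start on GRCh38.p14, 5′ to 3′ on the gene's own strand. Capitals mark matches to GAAANNGAAA or, on the other strand, TTTCNNTTTC, a common core of the response element, and matches may overlap each other. The windows are chr19:17405631-17405830 (minus strand) for BST2, chr13:42992242-42992441 (minus strand) for EPSTI1, chr15:88638816-88639015 (plus strand) for ISG20, chr4:168318753-168318952 (minus strand) for DDX60, chr7:93117980-93118179 (minus strand) for SAMD9 and chr12:112906762-112906961 (plus strand) for OAS1.
BST2: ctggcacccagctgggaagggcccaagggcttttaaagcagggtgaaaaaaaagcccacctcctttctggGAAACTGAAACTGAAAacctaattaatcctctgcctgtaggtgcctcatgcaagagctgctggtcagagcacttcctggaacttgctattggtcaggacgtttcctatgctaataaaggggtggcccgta
EPSTI1: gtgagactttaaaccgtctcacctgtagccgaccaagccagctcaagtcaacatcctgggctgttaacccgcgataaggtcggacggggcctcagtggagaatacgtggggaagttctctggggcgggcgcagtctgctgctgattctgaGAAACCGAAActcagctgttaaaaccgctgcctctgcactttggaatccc
ISG20: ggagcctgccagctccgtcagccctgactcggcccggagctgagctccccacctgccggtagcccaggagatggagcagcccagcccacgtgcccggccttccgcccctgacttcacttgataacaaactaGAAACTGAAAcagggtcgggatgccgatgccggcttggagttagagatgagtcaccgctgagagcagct
DDX60: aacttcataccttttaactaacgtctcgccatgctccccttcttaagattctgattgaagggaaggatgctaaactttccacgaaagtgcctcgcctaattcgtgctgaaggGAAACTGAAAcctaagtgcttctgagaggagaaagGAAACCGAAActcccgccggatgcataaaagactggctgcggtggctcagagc
SAMD9: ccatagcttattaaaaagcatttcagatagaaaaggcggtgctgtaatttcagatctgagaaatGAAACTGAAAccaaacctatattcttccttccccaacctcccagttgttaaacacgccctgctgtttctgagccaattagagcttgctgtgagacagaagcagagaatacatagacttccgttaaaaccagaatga
OAS1: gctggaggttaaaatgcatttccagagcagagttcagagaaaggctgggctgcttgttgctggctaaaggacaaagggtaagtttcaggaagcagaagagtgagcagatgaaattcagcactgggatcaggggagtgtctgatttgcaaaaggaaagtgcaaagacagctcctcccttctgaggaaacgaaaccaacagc

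In BST2 the matches began 130 and 124 bases before the start and overlapped, so that 3 GAAA units ran in a row. EPSTI1 had 1 match 50 bases before its start, ISG20 had 1 at 69 bases, SAMD9 had 1 at 136 bases, and DDX60 had 2, at 88 and 53 bases. The OAS1 window held none in that spacing; it had GAAA units 1 base apart, beginning 17 and 12 bases before the start, and so did DDX60 and SAMD9 beside their matches. No match says only that the letters searched are not in this window. Genes with these letters moved in opposite directions: BST2 rose and EPSTI1 fell in both derivatives. Of the 39 genes, 34 matched a RefSeq promoter entry (250 bases before to 50 after the start), DDX58 under its current name RIGI; DHX58, OAS2, OASL, USP18 and TRIM22 did not. Of the 34, 23 held the letters (67.6%), against 1195 of 27305 genes with an entry (4.38%). The letters stood in 9 of 10 matched genes that were called in a comparison and in 14 of 24 that were not. A match is a description of the sequence and not evidence of binding.

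Library totals were 39657353 to 57964246 counts, so that 1 count was worth 0.0177 to 0.0255 CPM. Whether the 2 libraries of a line come from different cultures is not stated, so each p-value reflects the spread between these samples alone, and that spread may be technical. The cells were epithelial by their RNA: 11 of 12 epithelial markers were tested, and their summed level was 12390 to 16100 CPM in HER2R, 8736 to 10480 CPM in CEAR and 11190 to 13570 CPM in MKN45. KRT8 and KRT18 led this sum, with means of 6827 and 4406 CPM in HER2R, while KRT20 and TFF3 were under 1 CPM in every library. Of the epithelial markers VIL1 fell in HER2R against MKN45 (-1.18 (edgeR adjusted p = 0.0302)) and EPCAM rose in HER2R against CEAR (0.79 (edgeR adjusted p = 0.0327)). The part of VIL1 and EPCAM in the results was not tested. All 18 T cell and NK markers in the table were under 1 CPM in every library. CD3D, a CD3 subunit of the T cell receptor complex, was among the 8 at 0 in all. The summed level of the 18 was 0.306 to 0.689 CPM in HER2R, 0.217 to 0.382 CPM in CEAR and 0.106 to 0.455 CPM in MKN45. With the label's library number added to the model, CD68 was called lower in both derivatives than in MKN45. COL1A1 was then called higher in HER2R than in both other lines. DESeq2, another test, called the same COL1A1 differences, and CD68 in HER2R against MKN45. In bulk RNA, fewer cells expressing a gene and less RNA per cell cannot be told apart.

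Across the 39 genes the lines did not shift as 1 block. HER2R held the highest levels of the 2′-5′-oligoadenylate synthetases OAS1, OAS2 and OAS3, of the exonuclease ISG20 and of the sensor DHX58. CEAR had the lowest mean of the 3 lines for 26 of the 39 genes (66.7%, against 33.2% of all tested genes), and MKN45 had the highest for 23 (59.0%, against 31.0%). The membrane protein BST2 was high in both derivatives, and EPSTI1 was low in both. The heatmap of all 39 genes by library shows these blocks.

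**Figure D1:**
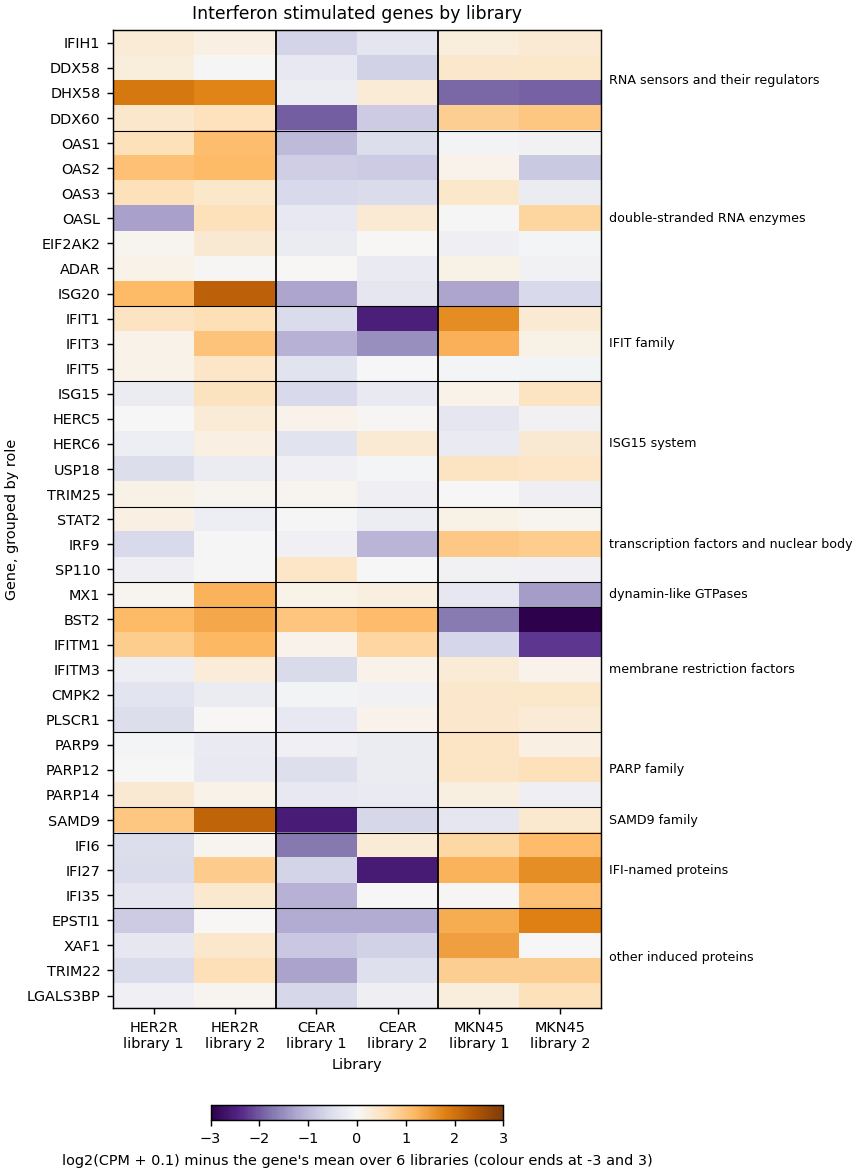
Each row is a gene and each column a library, with HER2R left, CEAR in the middle and MKN45 right; colour is log2(CPM + 0.1) minus the gene's mean over the 6 libraries, and it ends at -3 and 3. DHX58 and ISG20 are high in the HER2R libraries, BST2 is low in the MKN45 libraries alone, and most rows are violet in at least 1 CEAR library.

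In HER2R against MKN45, 5 of the 39 genes rose (DHX58, OAS2, ISG20, BST2 and IFITM1), 1 fell (EPSTI1) and 33 did not pass the edgeR test. That is 12.8% and 2.56% of the genes, where 4.89% of all tested genes rose and 4.85% fell. The median log2 fold change was -0.13, against -0.017 over all tested genes, and 16 of 39 were above 0 (41.0%, against 48.7%). The libraries of the lines did not overlap for 13 genes that were higher and 13 that were lower in HER2R; over all tested genes these shares were 27.8% and 29.3%. The count of called genes was 3 without HER2R library 1, 2 without HER2R library 2 and 2 without MKN45 library 2. In the same fits 1.39%, 1.23% and 2.36% of all tested genes were called in either direction. With the label's library number as a further term of the model, called the replicate block here, 8 genes rose and 10 fell, against 16.2% and 17.5% of all tested genes. DESeq2 called 6 higher and 5 lower (9.10% and 9.75% of all), and limma-voom 5 and 2 (4.71% and 4.35% of all). Beyond the edgeR genes, DESeq2 called OAS1 higher and USP18, IRF9, CMPK2 and PARP12 lower.

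In CEAR against MKN45, 2 genes rose (DHX58 and BST2), 3 fell (DDX60, PARP12 and EPSTI1) and 34 did not pass the edgeR test. The shares are 5.13% and 7.69%, with 2.57% and 3.62% over all tested genes. The median log2 fold change was -0.50, against -0.00019 over all tested genes, and 9 of 39 were above 0 (23.1%, against 49.9%). In 24 genes both CEAR libraries lay below both MKN45 libraries and in 6 above them, where 25.6% and 25.0% of all tested genes did so. Leaving out any 1 library lowered the count of called genes, to 2 without HER2R library 1, HER2R library 2 or CEAR library 1, and to 3 without CEAR library 2, MKN45 library 1 or MKN45 library 2. Between 1.65% and 2.78% of all tested genes were called in those fits. With the replicate block 3 rose and 20 fell, which is 7.69% and 51.3% of the genes, against 12.0% and 13.8% of all tested genes. DESeq2 called 3 higher and 11 lower (6.28% and 7.75% of all), and limma-voom 1 and 4 (2.40% and 3.35% of all). Beyond the edgeR genes, DESeq2 called IFITM1 higher and IFIH1, DDX58, OAS3, IFIT1, IFIT3, IRF9, IFI27 and LGALS3BP lower.

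In HER2R against CEAR, 8 genes rose (IFIH1, DHX58, DDX60, OAS1, OAS2, OAS3, ISG20 and SAMD9), which is 20.5% of the 39, where 7.32% of all tested genes rose and 6.75% fell. By edgeR 0 genes fell; at an unadjusted p under 0.05, 10 were higher and 0 lower (over all tested genes, 16.3% and 15.6%), DESeq2 called 10 higher and 0 lower (11.9% and 11% of all), and limma-voom called 7 higher and 0 lower (6.76% and 6.10% of all). Counted in either direction, DESeq2 called 25.6% of the 39 genes, near its 22.9% of all tested genes. IFIT3 and PARP14 were those it called beyond the edgeR genes. The median log2 fold change was 0.51, against 0.00 over all tested genes, and 34 of 39 were above 0 (87.2%, against 50.0%). In 23 genes both HER2R libraries lay above both CEAR libraries and in 3 below them, against 31.0% and 30.3% of all tested genes. The count of called genes was 1 without HER2R library 1 (where 1.25% of all tested genes were called), 0 without HER2R library 2 (0.669% of all), 0 without CEAR library 1 (3.40% of all) and 3 without CEAR library 2 (2.34% of all). With the replicate block 17 rose and 0 fell, against 19.7% and 18.6% of all tested genes. The comparisons share libraries, so the values of a gene in them are not independent.

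**Figure D2:**
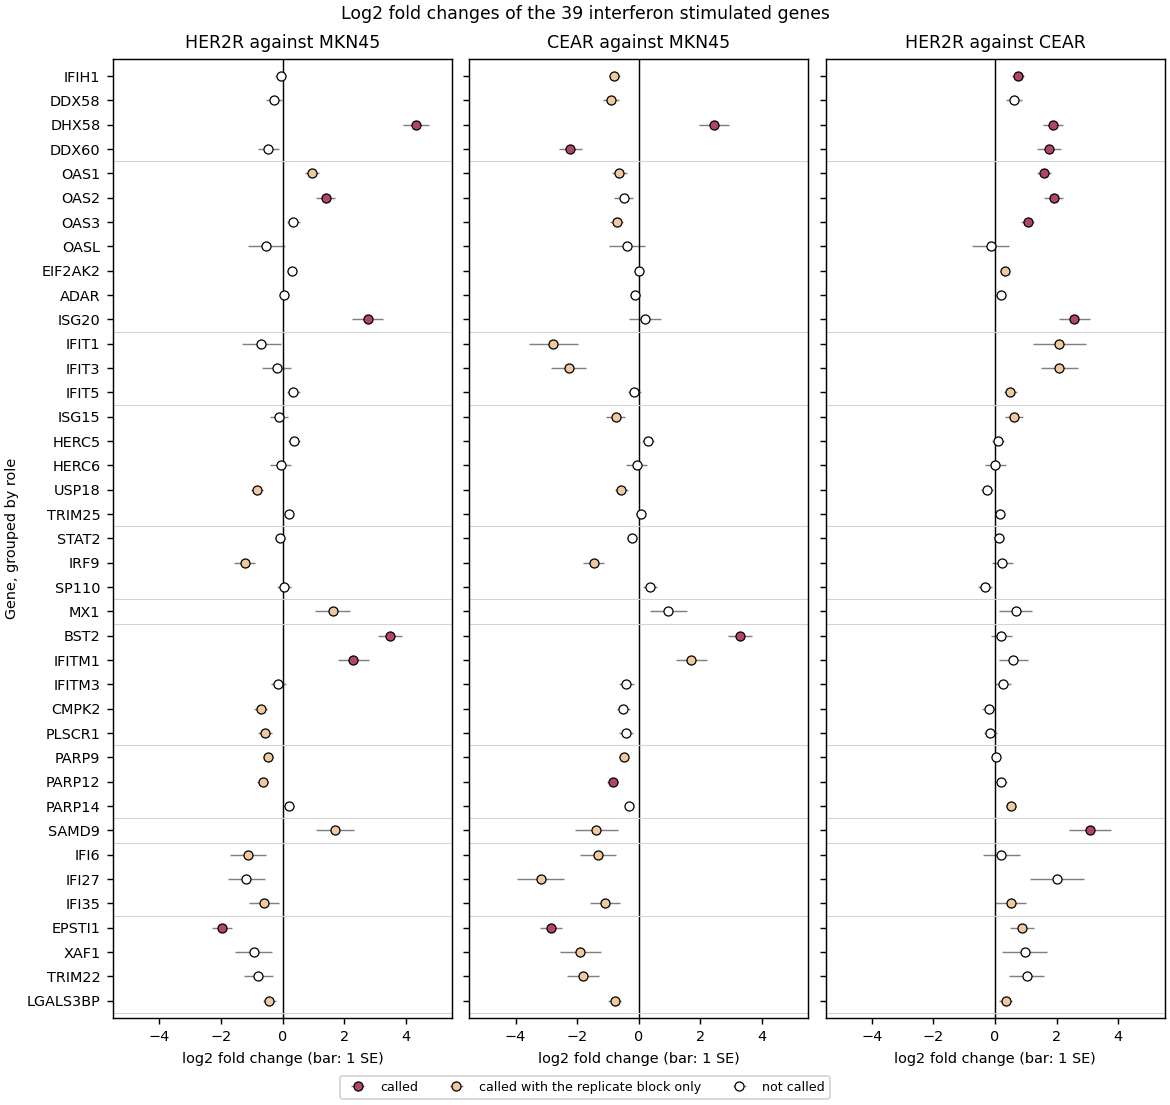
Points are edgeR log2 fold changes of the 39 genes in HER2R against MKN45 (left), CEAR against MKN45 (middle) and HER2R against CEAR (right), bars are 1 SE, and lines separate the roles. Dark points were called (6, 5 and 8 genes), pale orange points were called with the replicate block and not without it, and open points were not called; DHX58 and BST2 stand farthest right in the left and middle panels.

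**Figure D3:**
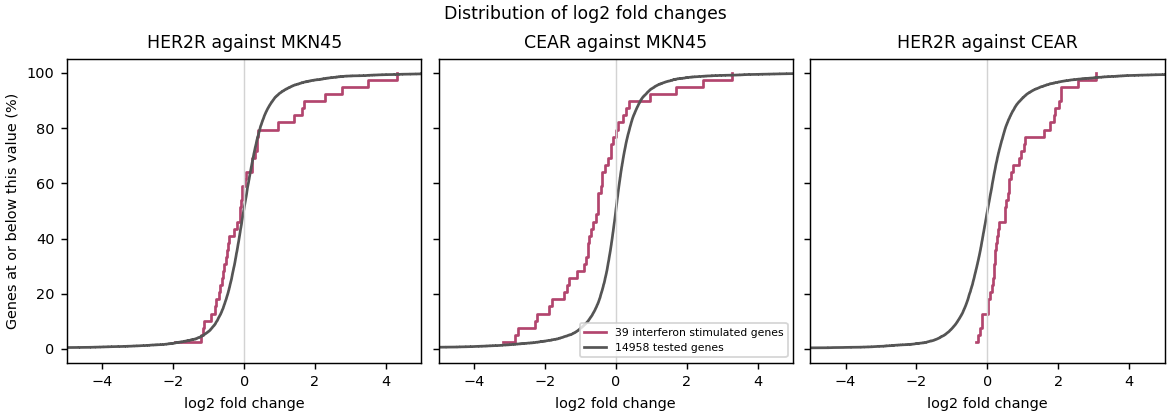
The percentage of genes (vertical axis) at or below each log2 fold change (horizontal axis, cut at -5 and 5) is drawn for the 39 genes and for the 14958 tested genes in each comparison. The curve of the 39 genes lies left of that of all tested genes in CEAR against MKN45 (median -0.50), right of it in HER2R against CEAR (median 0.51), and crosses it in HER2R against MKN45 (median -0.13).

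The RNA sensors in the list are RIG-I (DDX58), MDA5 (IFIH1) and LGP2 (DHX58), helicases of the cytoplasm that recognise viral RNA, with DDX60, a helicase described as a cofactor of RIG-I. DHX58 (chromosome 17, 42101404 to 42112733 on GRCh38) had 4.05 and 3.62 CPM in HER2R, 0.843 and 1.24 CPM in CEAR, and 0.195 and 0.182 CPM in MKN45. All 3 lines were apart, with HER2R highest and MKN45 lowest at 11 and 8 counts. DHX58 rose in HER2R against MKN45 (log2 fold change 4.32, SE 0.416, edgeR adjusted p = 0.00420), in CEAR against MKN45 (log2 fold change 2.45, SE 0.490, edgeR adjusted p = 0.0393) and in HER2R against CEAR (log2 fold change 1.88, SE 0.322, edgeR adjusted p = 0.0193). The HER2R call against MKN45 was kept with each of the 6 libraries left out in turn. That of CEAR against MKN45 ended with any 1 library left out (edgeR adjusted p = 0.0913 and 0.0897 without HER2R library 1 or 2, 0.0930 and 0.181 without CEAR library 1 or 2, and 0.128 and 0.137 without MKN45 library 1 or 2). It also ended with no filter on low counts (0.0535), with the compared lines alone (0.0889) and in limma-voom (adjusted p = 0.0525). That of HER2R against CEAR ended without HER2R library 1 (0.109), HER2R library 2 (0.102), CEAR library 1 (0.0950) or CEAR library 2 (0.0713).

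DDX60 (chromosome 4, 168216293 to 168318807) had 5.78 and 6.43 CPM in HER2R, 1.06 and 2.52 CPM in CEAR, and 8.01 and 8.82 CPM in MKN45. Both CEAR libraries were below all others, and library 1 was the lower. DDX60 fell in CEAR against MKN45 (log2 fold change -2.22, SE 0.380, edgeR adjusted p = 0.0251) and rose in HER2R against CEAR (log2 fold change 1.76, SE 0.387, edgeR adjusted p = 0.0330), and was at -0.46 (edgeR adjusted p = 0.423) in HER2R against MKN45. The first call ended without HER2R library 1 (edgeR adjusted p = 0.0673), HER2R library 2 (0.0668), CEAR library 1 (0.0698), MKN45 library 1 (0.0697) or MKN45 library 2 (0.0847) and with the compared lines alone (0.0694), and the second without HER2R library 1 (0.126), HER2R library 2 (0.150) or CEAR library 1 (0.0955). Without CEAR library 2 the log2 fold changes were -2.98 and 2.52.

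IFIH1 (chromosome 2, 162267079 to 162318703) had 16.7 and 15.4 CPM in HER2R, 8.58 and 10.7 CPM in CEAR, and 16.3 and 17.2 CPM in MKN45. The CEAR libraries were below all others, and HER2R and MKN45 overlapped. IFIH1 rose in HER2R against CEAR (log2 fold change 0.73, SE 0.189, edgeR adjusted p = 0.0494), and in CEAR against MKN45 its value was -0.79 (edgeR adjusted p = 0.0604, 0.00887 with the replicate block). The HER2R call against CEAR ended with any library left out (edgeR adjusted p = 0.200 and 0.163 without HER2R library 1 or 2, 0.215 and 0.110 without CEAR library 1 or 2, and 0.0720 and 0.0697 without MKN45 library 1 or 2). It also ended on library size alone (0.0626), with no filter on low counts (0.0626), with the compared lines alone (0.0715) and in limma-voom (adjusted p = 0.0503). DDX58 had 5.32 and 4.36 CPM in HER2R, 3.61 and 2.72 CPM in CEAR, and 5.86 and 5.93 CPM in MKN45. CEAR was again lowest without overlap, but DDX58 was not called in CEAR against MKN45 without the replicate block, at -0.90 (edgeR adjusted p = 0.0982, 0.0200 with the replicate block); DESeq2 called it (adjusted p = 0.0374). Among the sensors, then, DHX58 stood apart in being lowest in MKN45, where the other 3 were lowest in CEAR.

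Enzymes that act on double-stranded RNA or degrade RNA come next. OAS1, OAS2 and OAS3 lie side by side on chromosome 12 and make 2′-5′-oligoadenylate, a second messenger of the antiviral response. OAS1 (chromosome 12, 112906777 to 112933222) had 79.9 and 117 CPM in HER2R, 27.2 and 38.4 CPM in CEAR, and 50.8 and 50.7 CPM in MKN45. OAS3 (chromosome 12, 112938352 to 112973249) had 101 and 92.1 CPM in HER2R, 45.2 and 47.1 CPM in CEAR, and 91.7 and 59.5 CPM in MKN45. Both genes were highest in HER2R and lowest in CEAR, with no overlap between any lines, although library 1 of MKN45 came close to HER2R for OAS3. OAS2 (chromosome 12, 112978395 to 113011723) had 21.0 and 22.6 CPM in HER2R, 5.95 and 5.75 CPM in CEAR, and 10.7 and 5.68 CPM in MKN45. HER2R was well above the rest for OAS2, and the MKN45 libraries lay on either side of the CEAR pair.

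All 3 synthetases rose in HER2R against CEAR: OAS1 (log2 fold change 1.59, SE 0.241, edgeR adjusted p = 0.0141), OAS2 (log2 fold change 1.90, SE 0.311, edgeR adjusted p = 0.0171) and OAS3 (log2 fold change 1.06, SE 0.213, edgeR adjusted p = 0.0275). The OAS1 call ended without HER2R library 2 (edgeR adjusted p = 0.0836) or CEAR library 1 (0.0520). The OAS2 call ended without HER2R library 1 (0.0865), HER2R library 2 (0.102), CEAR library 1 (0.0680) or CEAR library 2 (0.0793), and that of OAS3 without HER2R library 1 (0.133), HER2R library 2 (0.116), CEAR library 1 (0.110) or CEAR library 2 (0.102). Against MKN45, HER2R was called for OAS2 (log2 fold change 1.40, SE 0.302, edgeR adjusted p = 0.0379). That call held without MKN45 library 1 and ended without HER2R library 1 (0.157), HER2R library 2 (0.168), CEAR library 1 (0.0542), CEAR library 2 (0.0518) or MKN45 library 2 (0.0823), and also with no filter on low counts (0.0555) or the compared lines alone (0.0510). OAS1 in HER2R against MKN45 was at 0.96 (edgeR adjusted p = 0.0535, 0.00225 with the replicate block), and it passed without CEAR library 1 (0.0467) or CEAR library 2 (0.0468). In CEAR against MKN45 the log2 fold changes were -0.63 (edgeR adjusted p = 0.176, 0.0129 with the replicate block) for OAS1 and -0.71 (edgeR adjusted p = 0.104, 0.0145 with the replicate block) for OAS3, the second of which also passed without MKN45 library 2 (0.0447), and -0.50 (edgeR adjusted p = 0.401) for OAS2. OASL, a relative of the synthetases without that activity, was at 3.06 to 11.3 CPM in HER2R, 6.29 to 9.64 CPM in CEAR and 7.58 to 13.2 CPM in MKN45. Its lines overlapped in every comparison.

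ISG20 (chromosome 15, 88636153 to 88656483), a 3′-5′ exonuclease that degrades viral RNA, had 11.8 and 25.6 CPM in HER2R, 2.14 and 4.13 CPM in CEAR, and 2.14 and 3.43 CPM in MKN45. Both HER2R libraries were above all others, library 2 the higher, and CEAR and MKN45 overlapped. ISG20 rose in HER2R against MKN45 (log2 fold change 2.76, SE 0.498, edgeR adjusted p = 0.0245) and against CEAR (log2 fold change 2.57, SE 0.495, edgeR adjusted p = 0.0255), while CEAR against MKN45 was at 0.19 (edgeR adjusted p = 0.877). The call against MKN45 ended without HER2R library 2 (edgeR adjusted p = 0.119, log2 fold change 2.10), MKN45 library 1 (0.0935) or MKN45 library 2 (0.0721). The call against CEAR ended without HER2R library 1 (0.0545), HER2R library 2 (0.121, log2 fold change 1.91), CEAR library 1 (0.0881) or CEAR library 2 (0.0613). EIF2AK2, the kinase PKR that stops translation on binding double-stranded RNA, had 73.8 and 89.5 CPM in HER2R, 60.5 and 71.4 CPM in CEAR, and 64.0 and 67.5 CPM in MKN45. HER2R was above both other lines by a small margin, and HER2R against CEAR was at 0.31 (edgeR adjusted p = 0.223, 0.0459 with the replicate block). ADAR, which converts adenosine to inosine in double-stranded RNA, ranged over 337 to 359 CPM in HER2R, 278 to 333 CPM in CEAR and 303 to 366 CPM in MKN45, and was not called in any comparison.

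**Figure D4:**
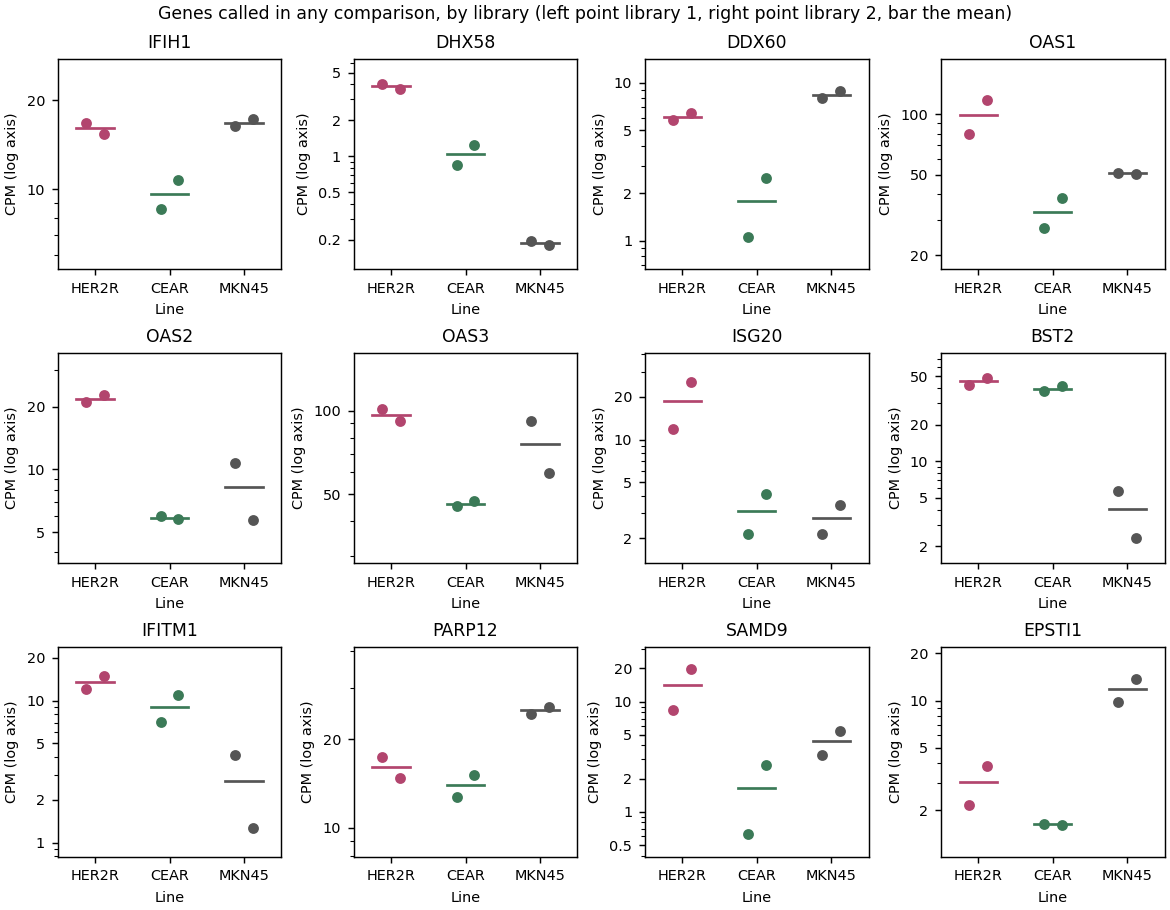
Each panel shows 1 of the 12 genes called in any comparison, with CPM on a log axis (each panel with its own range), the line on the horizontal axis, library 1 as the left and library 2 as the right point, and a bar at the mean. HER2R is highest for OAS1, OAS2, OAS3, ISG20, DHX58 and SAMD9, CEAR is lowest for IFIH1, DDX60 and SAMD9, and MKN45 stands apart low for BST2 and high for EPSTI1.

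The IFIT proteins bind viral RNA with foreign 5′ ends and block its translation, and their genes are among the most strongly interferon-induced. IFIT1 had 1.25 and 1.35 CPM in HER2R, 0.554 and 0.0674 CPM in CEAR, and 2.99 and 1.09 CPM in MKN45. IFIT3 had 2.01 and 3.83 CPM in HER2R, 0.795 and 0.584 CPM in CEAR, and 4.55 and 2.05 CPM in MKN45. Both were lowest in CEAR, with no overlap with either other line, and HER2R overlapped with MKN45; at 0.0674 CPM, IFIT1 in CEAR library 2 rested on 3 counts. IFIT5 had 16.3 and 20.1 CPM in HER2R, 11.1 and 14.7 CPM in CEAR, and 14.3 and 14.1 CPM in MKN45. HER2R was highest for IFIT5, and CEAR and MKN45 overlapped.

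No IFIT gene was called by edgeR. At an unadjusted p under 0.05, 2 were lower in CEAR against MKN45 and 1 was higher in HER2R against CEAR. Over all tested genes, 12.5% were lower and 16.3% higher in these comparisons at that p. DESeq2 called the same numbers (2 and 1), where it called 7.75% and 11.9% of all tested genes, and limma-voom called 0. With the replicate block IFIT1 and IFIT3 were called in CEAR against MKN45, at -2.77 (edgeR adjusted p = 0.0971, 0.0104 with the replicate block) and -2.28 (edgeR adjusted p = 0.0712, 0.0166 with the replicate block). All 3 were called with it in HER2R against CEAR, at 2.09 (edgeR adjusted p = 0.157, 0.0309 with the replicate block) for IFIT1, 2.08 (edgeR adjusted p = 0.0642, 0.0191 with the replicate block) for IFIT3 and 0.50 (edgeR adjusted p = 0.162, 0.0379 with the replicate block) for IFIT5. IFIT3 there also passed without MKN45 library 1 (0.0465) or MKN45 library 2 (0.0442). With a library left out, IFIT1 ran between -4.90 and -1.83 in CEAR against MKN45 and between 1.22 and 4.21 in HER2R against CEAR, farthest from 0 in both without CEAR library 1, which leaves CEAR with the 3 counts of library 2.

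ISG15 is a ubiquitin-like protein that is joined to other proteins by the ligases HERC5 and TRIM25 and removed by USP18, which also blocks the interferon receptor. ISG15 had 8.33 and 13.7 CPM in HER2R, 6.34 and 8.02 CPM in CEAR, and 10.7 and 13.5 CPM in MKN45. CEAR was below MKN45 without overlap, while the HER2R libraries lay on either side of the MKN45 pair. The log2 fold changes were -0.13 (edgeR adjusted p = 0.808) in HER2R against MKN45, -0.75 (edgeR adjusted p = 0.199, 0.0167 with the replicate block) in CEAR against MKN45 and 0.62 (edgeR adjusted p = 0.213, 0.0319 with the replicate block) in HER2R against CEAR. USP18 had 6.37 and 7.83 CPM in HER2R, 8.29 and 8.79 CPM in CEAR, and 12.9 and 12.4 CPM in MKN45. MKN45 was highest, then CEAR, then HER2R, with no overlap, and the log2 fold changes were -0.83 (edgeR adjusted p = 0.0516, 0.00836 with the replicate block) in HER2R and -0.56 (edgeR adjusted p = 0.153, 0.0428 with the replicate block) in CEAR against MKN45. HERC5 was at 12.5 to 15.5 CPM in HER2R, 12.8 to 13.6 CPM in CEAR and 9.92 to 11.7 CPM in MKN45. HERC6, a relative of HERC5, was at 7.49 to 9.62 CPM in HER2R, 6.38 to 10.6 CPM in CEAR and 7.10 to 10.8 CPM in MKN45. TRIM25 was at 220.3 to 229 CPM in HER2R, 187 to 219 CPM in CEAR and 185 to 204 CPM in MKN45. None of the 5 genes was called by edgeR. At an unadjusted p under 0.05, 1 was lower in HER2R and 2 were lower in CEAR against MKN45. Over all tested genes, 14.8% and 12.5% were lower at that p. DESeq2 and limma-voom each called USP18 lower in HER2R against MKN45, where they called 9.75% and 4.35% of all tested genes lower.

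Of the transcription factors, STAT2 and IRF9 form ISGF3 together with a further STAT protein, and both genes are themselves interferon-induced. IRF9 had 6.47 and 9.64 CPM in HER2R, 9.01 and 4.67 CPM in CEAR, and 19.3 and 18.4 CPM in MKN45. Both derivatives were well below MKN45 and overlapped with each other. In HER2R against MKN45 IRF9 was at -1.23 (edgeR adjusted p = 0.0715, 0.0140 with the replicate block), and in CEAR against MKN45 at -1.47 (edgeR adjusted p = 0.0599, 0.00801 with the replicate block). Without the block, DESeq2 called IRF9 lower in both derivatives against MKN45, and limma-voom called it lower in CEAR alone. IRF9 in HER2R passed without CEAR library 1 (0.0419) or CEAR library 2 (0.0408), and in CEAR without CEAR library 1 (0.0493, log2 fold change -2.01). Of its exon bases, 48.4% are shared with the gene listed as AL136295.5 on the same strand in GENCODE 29, so the counting could have split its reads. STAT2 had 53.4 and 41.9 CPM in HER2R, 45.7 and 41.3 CPM in CEAR, and 52.3 and 49.3 CPM in MKN45. HER2R overlapped with both other lines and CEAR lay just under MKN45, with log2 fold changes of -0.09 (edgeR adjusted p = 0.745) in HER2R against MKN45, -0.22 (edgeR adjusted p = 0.469) in CEAR against MKN45 and 0.13 (edgeR adjusted p = 0.621) in HER2R against CEAR. SP110, a nuclear body protein, was at 7.62 to 8.29 CPM in HER2R, 8.45 to 11.5 CPM in CEAR and 7.69 to 7.83 CPM in MKN45.

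BST2, or tetherin, holds budding virus particles at the cell surface, and the IFITM proteins block virus entry at membranes. BST2 (chromosome 19, 17402939 to 17405648) had 42.4 and 49.0 CPM in HER2R, 37.9 and 41.4 CPM in CEAR, and 5.70 and 2.32 CPM in MKN45, which is a mean of 45.7 ± 4.69 CPM in HER2R, 39.6 ± 2.49 CPM in CEAR and 4.01 ± 2.39 CPM in MKN45 (SD, n = 2 each). Every library of the derivatives was far above both of MKN45. BST2 rose in HER2R against MKN45 (log2 fold change 3.49, SE 0.383, edgeR adjusted p = 0.00588) and in CEAR against MKN45 (log2 fold change 3.28, SE 0.381, edgeR adjusted p = 0.00883), and HER2R against CEAR was at 0.20 (edgeR adjusted p = 0.716). Both calls were kept with each of the 6 libraries left out in turn and under the 8 other alternatives; without MKN45 library 1 the log2 fold changes were 4.30 in HER2R and 4.10 in CEAR.

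IFITM1 (chromosome 11, 313506 to 315272) had 12.1 and 15.0 CPM in HER2R, 7.03 and 11.01 CPM in CEAR, and 4.15 and 1.27 CPM in MKN45. The derivatives lay above MKN45 in the same order as for BST2, and HER2R and CEAR did not overlap. IFITM1 rose in HER2R against MKN45 (log2 fold change 2.29, SE 0.508, edgeR adjusted p = 0.0411). The call ended with no filter on low counts (edgeR adjusted p = 0.0598) and without HER2R library 1 (0.150), HER2R library 2 (0.173) or MKN45 library 2 (0.0786, log2 fold change 1.70), and without MKN45 library 1 the log2 fold change was 3.41. In CEAR against MKN45 IFITM1 was at 1.70 (edgeR adjusted p = 0.105, 0.0249 with the replicate block), and it passed without MKN45 library 1 (0.0435, log2 fold change 2.83). IFITM3 had 81.9 and 111 CPM in HER2R, 61.3 and 98.5 CPM in CEAR, and 113 and 98.4 CPM in MKN45. Its lines overlapped in all comparisons, with log2 fold changes of -0.13 (edgeR adjusted p = 0.773) in HER2R against MKN45, -0.40 (edgeR adjusted p = 0.408) in CEAR against MKN45 and 0.27 (edgeR adjusted p = 0.516) in HER2R against CEAR. The IFITM genes are close copies of each other, and 32.5% of the exon bases of IFITM1 are shared with IFITM2 on the same strand, so the split of reads between them is uncertain.

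MX1, a dynamin-like GTPase that traps viral nucleocapsids, had 1.15 and 2.73 CPM in HER2R, 1.18 and 1.26 CPM in CEAR, and 0.850 and 0.364 CPM in MKN45. MKN45 was lowest, and HER2R and CEAR overlapped. The log2 fold change was 1.62 (edgeR adjusted p = 0.123, 0.0462 with the replicate block) in HER2R and 0.96 (edgeR adjusted p = 0.402) in CEAR against MKN45. PLSCR1, a phospholipid scramblase with antiviral activity, had 33.9 and 48.2 CPM in HER2R, 39.3 and 52.0 CPM in CEAR, and 62.5 and 59.3 CPM in MKN45. CMPK2, a nucleotide kinase of mitochondria that is encoded beside RSAD2, had 4.33 and 4.87 CPM in HER2R, 5.35 and 5.26 CPM in CEAR, and 7.48 and 7.55 CPM in MKN45. MKN45 was highest for both without overlap, and HER2R against MKN45 was at -0.57 (edgeR adjusted p = 0.145, 0.0166 with the replicate block) for PLSCR1 and -0.71 (edgeR adjusted p = 0.0866, 0.0249 with the replicate block) for CMPK2.

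PARP9, PARP12 and PARP14 belong to the ADP-ribosyltransferase family and are induced together by interferon. PARP12 (chromosome 7, 140023744 to 140063721) had 17.5 and 14.8 CPM in HER2R, 12.8 and 15.2 CPM in CEAR, and 24.4 and 25.9 CPM in MKN45. MKN45 was highest, and the derivatives overlapped. PARP12 fell in CEAR against MKN45 (log2 fold change -0.85, SE 0.179, edgeR adjusted p = 0.0449), and in HER2R against MKN45 it was at -0.64 (edgeR adjusted p = 0.0716, 0.0150 with the replicate block). The CEAR call ended with any library left out (edgeR adjusted p = 0.0871 and 0.0847 without HER2R library 1 or 2, 0.203 and 0.122 without CEAR library 1 or 2, and 0.116 and 0.153 without MKN45 library 1 or 2), and also on library size alone (0.0569), with no filter on low counts (0.0580) or with the compared lines alone (0.0836). PARP9 had 35.5 and 30.8 CPM in HER2R, 33.8 and 31.7 CPM in CEAR, and 50.5 and 41.7 CPM in MKN45. It was highest in MKN45 too, at -0.48 (edgeR adjusted p = 0.109, 0.0130 with the replicate block) in HER2R and -0.49 (edgeR adjusted p = 0.125, 0.0142 with the replicate block) in CEAR against MKN45. PARP14 had 139.6 and 119.9 CPM in HER2R, 89.4 and 92.5 CPM in CEAR, and 126 and 98.5 CPM in MKN45. Here CEAR was lowest and HER2R overlapped with MKN45, and HER2R against CEAR was at 0.51 (edgeR adjusted p = 0.0814, 0.0113 with the replicate block).

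SAMD9 (chromosome 7, 93099513 to 93118023), an antiviral protein that restrains translation, had 8.36 and 19.7 CPM in HER2R, 0.626 and 2.67 CPM in CEAR, and 3.28 and 5.43 CPM in MKN45. All 3 lines were apart, with HER2R highest and CEAR lowest, and library 2 was above library 1 in each line. SAMD9 rose in HER2R against CEAR (log2 fold change 3.07, SE 0.685, edgeR adjusted p = 0.0342), the largest log2 fold change among the 8 genes called there. The call ended without HER2R library 1 (edgeR adjusted p = 0.0810), HER2R library 2 (0.162, log2 fold change 2.32) or CEAR library 1 (0.0947, log2 fold change 2.38), and without CEAR library 2 it held at 0.0498 with a log2 fold change of 4.48. Against MKN45, SAMD9 was at 1.70 (edgeR adjusted p = 0.131, 0.00221 with the replicate block) in HER2R and -1.37 (edgeR adjusted p = 0.305, 0.0101 with the replicate block) in CEAR.

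EPSTI1 (chromosome 13, 42886388 to 42992271), an interferon-response gene first described in breast epithelium, had 2.17 and 3.85 CPM in HER2R, 1.64 and 1.62 CPM in CEAR, and 9.74 and 13.8 CPM in MKN45. Both derivatives were far below MKN45, with CEAR lowest. EPSTI1 fell in HER2R against MKN45 (log2 fold change -1.97, SE 0.340, edgeR adjusted p = 0.0221) and in CEAR against MKN45 (log2 fold change -2.85, SE 0.362, edgeR adjusted p = 0.0115), and HER2R against CEAR was at 0.88 (edgeR adjusted p = 0.174, 0.0454 with the replicate block). The HER2R call ended without HER2R library 1 (edgeR adjusted p = 0.125), HER2R library 2 (0.0682) or MKN45 library 2 (0.0815), and the CEAR call without CEAR library 1 (0.0514) or CEAR library 2 (0.0617).

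LGALS3BP, a secreted galectin-binding glycoprotein, had 339 and 392 CPM in HER2R, 242 and 335 CPM in CEAR, and 443 and 546 CPM in MKN45. The lines did not overlap, with MKN45 highest and CEAR lowest. Its log2 fold changes were -0.43 (edgeR adjusted p = 0.225, 0.0239 with the replicate block) in HER2R and -0.78 (edgeR adjusted p = 0.0808, 0.00234 with the replicate block) in CEAR against MKN45 and 0.34 (edgeR adjusted p = 0.307, 0.0432 with the replicate block) in HER2R against CEAR. XAF1, a partner of the apoptosis inhibitor XIAP, had 0.662 and 1.15 CPM in HER2R, 0.434 and 0.494 CPM in CEAR, and 2.53 and 0.841 CPM in MKN45. TRIM22, an antiviral ubiquitin ligase, had 0.662 and 1.56 CPM in HER2R, 0.361 and 0.719 CPM in CEAR, and 1.91 and 1.93 CPM in MKN45. For both genes CEAR lay below MKN45 without overlap, at -1.89 (edgeR adjusted p = 0.149, 0.0479 with the replicate block) and -1.81 (edgeR adjusted p = 0.0950, 0.0132 with the replicate block); 38.3% of the exon bases of XAF1 lie opposite PRAL, and whether the counting used strand is not stated.

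Of the genes named only for their interferon induction, IFI27 had 0.586 and 1.79 CPM in HER2R, 0.530 and 0.0674 CPM in CEAR, and 2.30 and 3.09 CPM in MKN45. IFI6, a small protein of mitochondria and the endoplasmic reticulum, had 4.56 and 6.86 CPM in HER2R, 1.90 and 7.999 CPM in CEAR, and 10.7 and 14.3 CPM in MKN45. IFI35 had 8.56 and 14.3 CPM in HER2R, 5.08 and 10.9 CPM in CEAR, and 11.3 and 23.3 CPM in MKN45. MKN45 was above CEAR without overlap for all 3 and above HER2R for IFI27 and IFI6; IFI27 in CEAR library 2 rested on 3 counts, and IFI6 in CEAR differed widely between its libraries. None was called by edgeR. At an unadjusted p under 0.05, 1 was lower in CEAR against MKN45, where 12.5% of all tested genes were lower. DESeq2 called 1 lower there (7.75% of all) and limma-voom 0 (3.35% of all). In CEAR against MKN45 the log2 fold changes were -3.19 (edgeR adjusted p = 0.0617, 0.00807 with the replicate block) for IFI27, -1.33 (edgeR adjusted p = 0.239, 0.0143 with the replicate block) for IFI6 and -1.10 (edgeR adjusted p = 0.245, 0.00229 with the replicate block) for IFI35. With a library left out, IFI27 there ran between -5.25 (without CEAR library 1) and -2.33 (without CEAR library 2). IFI6 there passed without CEAR library 2 (0.0462, log2 fold change -2.71). In HER2R against MKN45 IFI6 was at -1.13 (edgeR adjusted p = 0.259, 0.0275 with the replicate block) and IFI35 at -0.60 (edgeR adjusted p = 0.468, 0.0295 with the replicate block), and IFI35 was at 0.51 (edgeR adjusted p = 0.528, 0.0349 with the replicate block) in HER2R against CEAR.

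Levels between genes were compared per length, as mean CPM per kb of exon in GENCODE 29. The length holds every base annotated as exon of the gene in any transcript. It can exceed the transcripts expressed, which lowers the value, so close ranks are uncertain. LGALS3BP led at 102 CPM per kb in HER2R, 80.5 in CEAR and 138 in MKN45, followed by IFITM3 at 71.4, 59.3 and 78.3 in the same lines. BST2 stood at 40.8 CPM per kb in HER2R and 35.4 in CEAR, close to the RNA editing enzyme ADAR (35.9 and 31.5), but at 3.59 in MKN45, where ADAR was at 34.5. MX1 had the lowest mean over the 3 lines (0.146 CPM per kb), close to XAF1 (0.154). MX1 was at 0.225 CPM per kb in HER2R, 0.142 in CEAR and 0.0705 in MKN45. Lower than MX1 were XAF1 (0.137) and TRIM22 (0.184) in HER2R, and DHX58 (0.0490) in MKN45. In CEAR, IFIT1 (0.0674), XAF1 (0.0701), IFI27 (0.0720) and TRIM22 (0.0897) were lower.

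**Figure D5:**
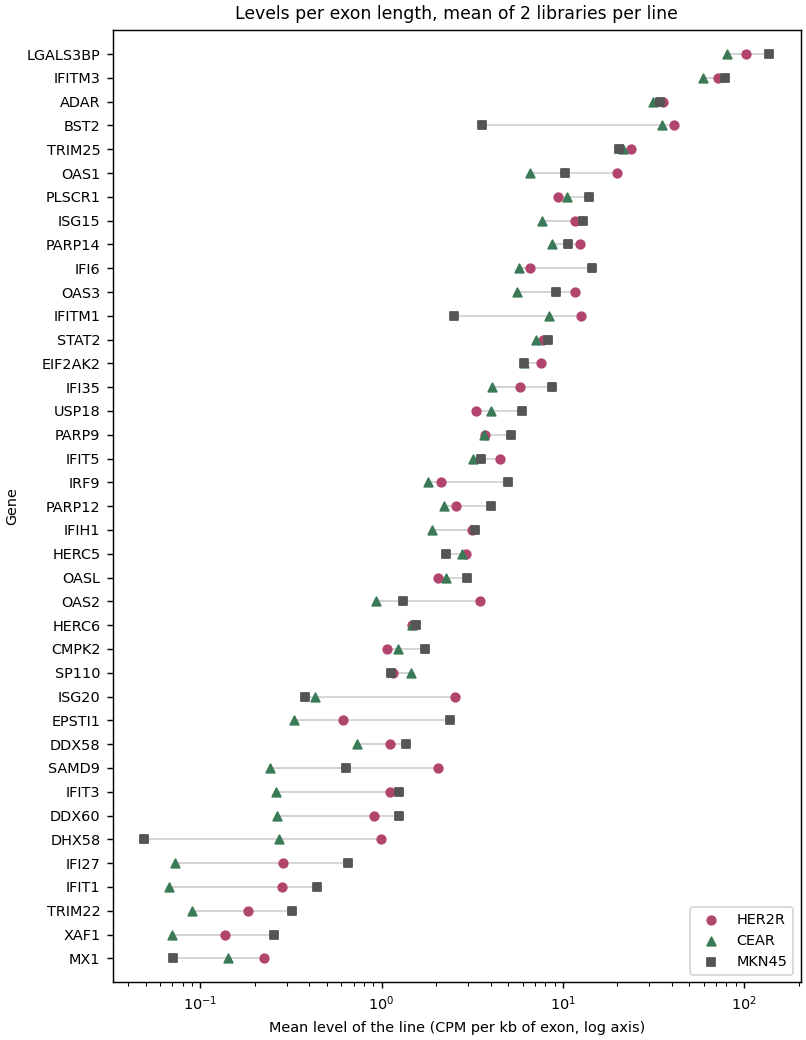
The mean level of each line in CPM per kb of exon (log axis) is shown for the 39 genes, ordered by their mean over the lines, with circles for HER2R, triangles for CEAR and squares for MKN45. The widest gaps between lines are those of DHX58 and BST2, with MKN45 at the left, and LGALS3BP and IFITM3 lead in all 3 lines.

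The 9 genes under the level were IFIT2, IRF7, MX2, IFITM2, RSAD2, SAMD9L, IFI44, IFI44L and RTP4, of which IFIT2, MX2, RSAD2, SAMD9L and IFI44 had enough counts to be tested. SAMD9L, the neighbour and relative of SAMD9, had 0.357 and 0.357 CPM in HER2R, 0.0482 and 0.0225 CPM in CEAR, and 1.01 and 0.705 CPM in MKN45. CEAR held 3 counts in all, HER2R 28 and MKN45 88; the level was 10.2-fold higher in HER2R than in CEAR (95% interval from counting 3.16 to 52.6) and 25.1-fold lower in CEAR than in MKN45 (8.32 to 124). SAMD9L was called in CEAR against MKN45 (edgeR adjusted p = 0.0103) and in HER2R against CEAR (0.0370). The first call ended without CEAR library 1 (0.0991) or CEAR library 2 (0.131), and the second without HER2R library 1 (0.142), HER2R library 2 (0.150), CEAR library 1 (0.179) or CEAR library 2 (0.2505) and with no filter on low counts (0.0560). In HER2R against MKN45 SAMD9L was not called without the replicate block, at -1.28 (edgeR adjusted p = 0.0891, 0.0341 with the replicate block). So SAMD9 and SAMD9L were both lowest in CEAR, while SAMD9 was highest in HER2R and SAMD9L in MKN45.

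MX2, a GTPase that restricts retroviruses at the nuclear pore, had 0.204 and 0.459 CPM in HER2R, 0.0241 and 0 CPM in CEAR, and 0.655 and 0.432 CPM in MKN45. These are 26 counts in HER2R, 1 in CEAR and 56 in MKN45, and CEAR was lowest. It was 28.5-fold higher in HER2R than in CEAR (95% interval 4.68 to 1170) and 48-fold lower in CEAR than in MKN45 (8.26 to 1930). It was called in CEAR against MKN45 (edgeR adjusted p = 0.0450), a call that ended without any 1 library (edgeR adjusted p = 0.0823 and 0.0825 without HER2R library 1 or 2, 0.145 and 0.204 without CEAR library 1 or 2, and 0.117 and 0.0833 without MKN45 library 1 or 2), and also with no filter on low counts (0.0595) or with the compared lines alone (0.0795). In HER2R against CEAR MX2 was not called without the replicate block (edgeR adjusted p = 0.0655, 0.0191 with it), while DESeq2 (0.0355) and limma-voom (0.0461) called it. IFI44 had 0.229 and 0.459 CPM in HER2R, 0 and 0 CPM in CEAR, and 1.03 and 0.455 CPM in MKN45. These are 27 counts in HER2R, 0 in CEAR and 78 in MKN45, which makes it at least 9.87-fold higher in HER2R than in CEAR and at least 22.3-fold lower in CEAR than in MKN45, against a floor of 3 counts over the CEAR libraries. The edgeR adjusted p of IFI44 was 0.0554 in CEAR against MKN45 (0.00393 with the replicate block) and 0.0881 in HER2R against CEAR (0.0134 with the replicate block). DESeq2 (0.00079 and 0.00434) and limma-voom (0.0236 and 0.0319) called both. Intervals and floors cover counting error only. IFIT2 was at 0.866 and 1.30 CPM in HER2R, 0.337 and 0 CPM in CEAR, and 0.921 and 0.659 CPM in MKN45, and RSAD2, the antiviral enzyme viperin, at 0.433 and 0.689 CPM in HER2R, 0.0723 and 0.225 CPM in CEAR, and 0.709 and 0.455 CPM in MKN45. Both were lowest in CEAR and were not called by edgeR without the replicate block; with it IFIT2 was called in HER2R against CEAR (edgeR adjusted p = 0.0813, 0.0236 with the replicate block). IRF7, the factor that amplifies interferon production, was at 0.0255 CPM or less in every library. IFI44L, the neighbour of IFI44, had 7 counts in HER2R, 0 in CEAR and 27 in MKN45. IFITM2 ranged over 0.0682 to 1.21 CPM and the chaperone gene RTP4 over 0 to 0.153 CPM across the libraries.

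The rest of the pathway was described from lists of its parts. All 20 genes for type I and type III interferons were at 0 counts in all 6 libraries, so no ligand RNA was detected at this depth. Of 6 receptor and receptor kinase genes, 0 were called by edgeR in any comparison. At an unadjusted p under 0.05, 2 were higher and 1 lower in HER2R against MKN45 (13.9% and 14.8% of all tested genes). The numbers were 0 and 1 in CEAR against MKN45 (10.8% and 12.5% of all) and 1 and 0 in HER2R against CEAR (16.3% and 15.6%). DESeq2 called 1 in each comparison and limma-voom 0. In either direction, DESeq2 called 18.9%, 14.0% and 22.9% of all tested genes in these comparisons. IFNAR1, a chain of the type I receptor, had 43.0 and 41.1 CPM in HER2R, 30.0 and 31.1 CPM in CEAR, and 44.0 and 44.8 CPM in MKN45. CEAR was lowest without overlap, at -0.54 (edgeR adjusted p = 0.0588, 0.00818 with the replicate block) against MKN45, and HER2R against CEAR was at 0.46 (edgeR adjusted p = 0.0586, 0.0114 with the replicate block). IFNAR2, the other chain, had 5.68 and 9.69 CPM in HER2R, 7.06 and 9.75 CPM in CEAR, and 12.2 and 14.6 CPM in MKN45. MKN45 was highest, with log2 fold changes of -0.80 (edgeR adjusted p = 0.152, 0.0104 with the replicate block) in HER2R and -0.67 (edgeR adjusted p = 0.258, 0.0259 with the replicate block) in CEAR.

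The genes of the kinases bound to these chains had their highest levels in HER2R. JAK1 had 199 and 176 CPM in HER2R, 173 and 129 CPM in CEAR, and 132 and 136 CPM in MKN45, and TYK2 had 87.8 and 78.3 CPM in HER2R, 63.5 and 68.4 CPM in CEAR, and 54.2 and 64.3 CPM in MKN45. Both HER2R libraries were above all others for JAK1 and TYK2, and against MKN45 JAK1 was at 0.49 (edgeR adjusted p = 0.118, 0.0189 with the replicate block) and TYK2 at 0.49 (edgeR adjusted p = 0.0818, 0.0158 with the replicate block). IL10RB, a chain shared by the receptors of type III interferon and interleukin-10, had 15.6 and 18.3 CPM in HER2R, 13.1 and 15.1 CPM in CEAR, and 16.5 and 26.9 CPM in MKN45. CEAR was below MKN45 without overlap for IL10RB, at -0.62 (edgeR adjusted p = 0.218, 0.0307 with the replicate block).

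Of 14 genes for sensing and adaptor proteins 13 were tested. By edgeR 1 rose in HER2R against MKN45 (4.89% of all tested genes rose). In CEAR against MKN45 1 fell (3.62% of all), and in HER2R against CEAR 2 rose (7.32% of all). DESeq2 called 3, 2 and 3 of the 13 in these comparisons, where it called 18.9%, 14.0% and 22.9% of all tested genes. TRAF3 (DESeq2 adjusted p = 0.00719) and TANK (0.0189) were among them in HER2R against MKN45. The limma-voom fit called 1, 0 and 1. TLR3, the endosomal receptor for double-stranded RNA, had 2.80 and 4.46 CPM in HER2R, 0 and 0.157 CPM in CEAR, and 2.98 and 8.41 CPM in MKN45. CEAR was almost without TLR3 RNA, and HER2R and MKN45 overlapped. TLR3 fell in CEAR against MKN45 (log2 fold change -6.07, SE 0.985, edgeR adjusted p = 0.0190) and rose in HER2R against CEAR (log2 fold change 5.43, SE 1.04, edgeR adjusted p = 0.0228). Neither TLR3 call was made by limma-voom (adjusted p = 0.0664 and 0.0544). The first also ended without CEAR library 1 (edgeR adjusted p = 0.0850) or CEAR library 2 (0.0739), and the second without HER2R library 1 (0.0794), HER2R library 2 (0.110), CEAR library 1 (0.0855) or CEAR library 2 (0.0754).

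TICAM1, the adaptor of TLR3, had 37.4 and 38.3 CPM in HER2R, 21.1 and 22.5 CPM in CEAR, and 21.8 and 19.4 CPM in MKN45. HER2R was above both other lines, and TICAM1 rose against MKN45 (log2 fold change 0.87, SE 0.146, edgeR adjusted p = 0.0200) and against CEAR (log2 fold change 0.79, SE 0.146, edgeR adjusted p = 0.0228). Both calls held in limma-voom; the first ended without HER2R library 1 (edgeR adjusted p = 0.119), HER2R library 2 (0.121), MKN45 library 1 (0.0590) or MKN45 library 2 (0.0900), and the second without HER2R library 1 (0.115), HER2R library 2 (0.124), CEAR library 1 (0.111) or CEAR library 2 (0.0937). With the replicate block TRAF3 and TANK also fell in HER2R against MKN45, TANK fell in CEAR against MKN45, and MAVS rose and TRAF3 fell in HER2R against CEAR. The block fit called 33.7%, 25.8% and 38.2% of all tested genes in these comparisons, in either direction.

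Of 7 negative feedback genes, the 1 called by edgeR without the replicate block was PTPN1, a phosphatase that acts on receptor kinases. DESeq2 called 2 of the 7 in each comparison, where it called 18.9%, 14.0% and 22.9% of all tested genes. PTPN6 was among them in HER2R against MKN45 (DESeq2 adjusted p = 0.0214) and in CEAR against MKN45 (0.0169). The limma-voom fit called 1 in HER2R against MKN45, 0 in CEAR against MKN45 and 1 in HER2R against CEAR. PTPN1 had 52.9 and 56.5 CPM in HER2R, 92.1 and 81.0 CPM in CEAR, and 89.1 and 79.8 CPM in MKN45. HER2R was lowest, and PTPN1 fell in HER2R against MKN45 (log2 fold change -0.63, SE 0.135, edgeR adjusted p = 0.0382) and against CEAR (log2 fold change -0.66, SE 0.135, edgeR adjusted p = 0.0287). Over all tested genes, 4.85% and 6.75% fell in these comparisons. The first call ended with any library left out (edgeR adjusted p = 0.0577 to 0.203), with no filter on low counts (0.0558) and with the compared lines alone (0.0564), and the second without HER2R library 1 (0.150), HER2R library 2 (0.131), CEAR library 1 (0.130) or CEAR library 2 (0.0836). With the replicate block further genes were called: PTPN6 fell in HER2R against MKN45, PTPN6 fell and SOCS1 and PTPN2 rose in CEAR against MKN45, and SOCS3 rose and PIAS1 fell in HER2R against CEAR. Of all tested genes, the block fit called 33.7%, 25.8% and 38.2% in these comparisons, in either direction. SOCS1, an inhibitor of the receptor kinases, had 2.34 and 1.91 CPM in HER2R, 3.57 and 2.94 CPM in CEAR, and 1.70 and 1.25 CPM in MKN45. CEAR was highest without overlap, and against MKN45 SOCS1 was at 1.12 (edgeR adjusted p = 0.0888, 0.0144 with the replicate block) there. DESeq2 called SOCS1 in that comparison without the block (adjusted p = 0.0451).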

How the data were processed

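Total RNA of HER2R, CEAR and MKN45 cells was sequenced from stranded, ribosomal RNA depleted libraries, per the labels' protocols. The authors deposited raw counts per gene symbol, whole numbers in all 6 libraries. GRCh38 and limma appear in the submitters' processing notes with neither role nor version. The sources used here do not give the aligner, the counting program, its strand setting or the annotation.

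Tests on the counts used edgeR 4.0.16 (R 4.3.3). filterByExpr by line kept 14958 of 29744 symbols, TMM scaled the libraries, and all 6 entered a single quasi-likelihood fit by line, with 3 residual and 3.51 prior degrees of freedom. Fold changes are the fitted ones, their SE was derived from the F statistic, p-values were adjusted over all tested genes, and the scripts were tested on simulated data. The paired libraries differed beyond counting noise: chi-square over degrees of freedom was 60.7 in HER2R, 90.0 in CEAR and 128 in MKN45. Alternatives were the replicate block, DESeq2 1.42.0, limma-voom (limma 3.58.1), RLE size factors, library size alone, the compared lines alone, a filter at 1 CPM, no filter, and each library left out in turn; a line then left with 1 library was taken to vary as the rest do.

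The labels number the libraries 1 and 2 in each line. Number 2 minus number 1, over all tested genes, correlated at 0.378 between HER2R and MKN45, 0.545 between CEAR and MKN45 and 0.355 between HER2R and CEAR, so the number was used as a replicate block; what it stands for is not stated. The genes, the lists and the tests were chosen with earlier results of these data known, and a pattern seen in those is not supported independently here. Of the 39 genes, values in every library were given for those called in any comparison with or without the block, and for STAT2, IRF9, IRF7, ISG15, MX1, IFIT1, OAS1, BST2, IFI27 and IFITM3 whatever their values. From the other lists, counts were given and up to 4 called genes per comparison; the receptor, JAK1, TYK2 and SOCS1 values were added after they were seen. Positions and exon lengths are from GENCODE 29 (GRCh38), which may not be the annotation behind the counts, and promoters are from RefSeq (GRCh38.p14).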

Additional observations from a re-analysis of the deposited data

Results flagged for a closer look

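For 8 genes the change from MKN45 differed between the derivatives by the test of that difference, which is the comparison of HER2R with CEAR. That is 20.5% of the 39 genes, where 7.32% of all tested genes rose and 6.75% fell. Each of the 8 calls ended with at least 1 library left out. The log2 differences, HER2R minus CEAR, were 0.73 for IFIH1, 1.88 for DHX58, 1.76 for DDX60, 1.59 for OAS1, 1.90 for OAS2, 1.06 for OAS3, 2.57 for ISG20 and 3.07 for SAMD9. Of these, DHX58 was above MKN45 in both derivatives and more so in HER2R, ISG20 was above it in HER2R alone, and DDX60 and IFIH1 were below it in CEAR and nearer to it in HER2R. SAMD9, OAS1 and OAS3 were above MKN45 in both HER2R libraries and below it in both CEAR libraries, OAS3 in HER2R library 2 by a small margin. OAS2 was above MKN45 in both HER2R libraries, and its CEAR libraries lay between those of MKN45. These places are by level: IFIH1, SAMD9, OAS1 and OAS3 were not called against MKN45 in either derivative by edgeR without the replicate block.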

How the results depend on the processing

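The count of called genes in HER2R against MKN45 was 6 (9.74% of all tested genes were called), and it was 18 with the replicate block (33.7% of all) and 11 with DESeq2 (18.9%); with each library left out in turn it ran between 2 and 7 (1.23% to 7.40%). In CEAR against MKN45 the count was 5 (6.19% of all), and it was 23 with the replicate block (25.8%), 14 with DESeq2 (14.0%), 3 with no filter on low counts (3.49%) and 2 with the compared lines alone (2.77%); with a library left out it ran between 2 and 3 (1.65% to 2.78%). In HER2R against CEAR the count was 8 (14.1% of all), and it was 17 with the replicate block (38.2%) and between 0 and 8 with a library left out (0.669% to 12.1%). The other alternatives run kept each count within 1.5 times. Under the alternatives that left out no library, 0 of 312 log2 fold changes of the 39 genes changed sign in HER2R against MKN45, 1 of 312 in CEAR against MKN45 (EIF2AK2, with the replicate block) and 3 of 312 in HER2R against CEAR (HERC6 on library size alone and with no filter, and PARP9 on library size alone). In each of these the log2 fold change was within 0.017 of 0 with TMM and no block.

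Of 39 results of the 39 genes called with the replicate block and not without it, 21 moved by more than 1.5 times on the log2 scale with some library left out, IFIT1, SAMD9, IFI6 and IFI35 in CEAR against MKN45 among them, and of 19 called without it 0 did. Among the 19, IFITM1 in HER2R against MKN45 and SAMD9 in HER2R against CEAR moved by nearly that much. Most of the 19 calls ended with some library left out. A call without the block itself favours genes with a small spread between libraries, so this contrast does not show that the 19 are stable. With a library left out, log2 fold changes of some uncalled genes changed sign. In HER2R against MKN45 the range was -1.21 to 0.26 for IFIT1 (highest without MKN45 library 1), -0.54 to 0.18 for ISG15 (0.18 without HER2R library 1, 0.042 without MKN45 library 2), -0.28 to 0.070 for STAT2 (highest without HER2R library 2), -0.37 to 0.065 for IFITM3 (highest without HER2R library 1) and -1.02 to 0.0055 for IFI35 (highest without MKN45 library 2). In HER2R against CEAR it was -0.061 to 0.29 for STAT2 (lowest without HER2R library 1), -0.17 to 0.78 for IRF9 (-0.17 without CEAR library 2, -0.079 without HER2R library 2), -0.090 to 1.16 for MX1 (lowest without HER2R library 2) and -0.039 to 0.65 for IFITM3 (lowest without CEAR library 1). Library size alone moved the median of all genes by at most 0.074 on the log2 scale. The cause of these shifts was not tested. With 2 libraries per line the spread is poorly known, and genes under about 1 CPM rest on few counts.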

Other observations

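The library number moved with some of the genes. Of the 39 genes, 11 were higher in library 2 than in library 1 in all 3 lines (28.2%, against 26.9% of all tested genes) and 4 were lower in all 3 (10.3%, against 25.3%). SAMD9, ISG20 and IFI35 were among those higher in every line. The median log2 ratio of library 2 to library 1 over the 39 genes was 0.30 in HER2R, 0.16 in CEAR and -0.02 in MKN45, where over all tested genes it was 0.012, 0.0076 and 0.0048. What the number stands for was not given, and its part in the results was addressed with the replicate block alone.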
